A study of Mus musculus with 22 samples.

Results

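The 9 genes described here encode 4 bone morphogenetic protein (BMP) ligands (Bmp2, Bmp4, Bmp5 and Bmp6), 4 secreted antagonists that bind BMPs or activins outside the cell (Grem1, Nog, Chrd and Fst), and Bambi, a membrane protein that resembles a type I receptor without a kinase domain and is therefore a decoy receptor rather than a secreted antagonist. All probe sets annotated to these gene symbols were taken, which gave 12 of the 45037 non-control probe sets of the array. The genes were chosen by pathway with earlier results of these data known, and the measured values behind the choice were those in cells against lung, above all the high Grem1 level, so every difference of these genes between cells and lung is given as a description and without a test.

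BMPs are secreted dimers of the TGF-beta superfamily. They assemble type I and type II receptor kinases, which phosphorylate SMAD1, SMAD5 and SMAD9, and these enter the nucleus with SMAD4 and switch on genes such as the ID factors and the inhibitory SMADs. In the lung, BMP4 and its antagonists shape branching and the choice of epithelial fate during development, and mutations of the type II receptor gene BMPR2 cause heritable pulmonary arterial hypertension in humans.

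Transcript levels were measured on 22 Affymetrix arrays of Mus musculus samples. Antibody-treated cells (3 arrays) were A2C12 cells given a monoclonal antibody to mouse EpCAM at 100 µg/ml for 48 h and then sorted by flow cytometry for the side population (SP), the fraction that keeps out the DNA dye Hoechst 33342. Untreated cells (3 arrays) were A2C12 SP cells sorted without the antibody. Both came from one lung tumour line, derived from a mouse that carried 2 transgenes, c-myc and c-raf, on a C57BL/6 background, so they are preparations of a single line, and the series holds no unsorted cells of it. The lung arrays came from non-transgenic C57BL/6 mice, 8 labelled female and 8 labelled male, and no age is given in the labels. The labels call the arrays of each group biological replicates.

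Values are deposited PLIER intensities on a linear scale, and differences are on the scale log2(intensity + 16) after quantile normalization, which understates changes of dim probe sets. The level called background here is the 40th percentile of an array, 24.6 to 25.7 on antibody-treated, 24.9 to 25.8 on untreated and 30.1 to 33.7 on lung arrays. The 2 arrays labelled male lung 3 and 4 went against their label, with Xist at 1512 and 1583 and the Y-linked Uty at 8.27 and 9.46, against Xist of 12.7 to 24.0 and Uty of 722 to 1253 on the other 6 arrays labelled male. Differences of Fst, Bmp4 and Bmp6 are given with and without them. The lung identity of the tissue was clear from its surfactant gene Sftpc, at 9934 to 11940.0 on lung arrays. The sorted cells lacked several markers of lung epithelium, though Krt19 averaged 1559 in antibody-treated and 1732 in untreated cells, against 2072 in lung. On 1 of its 2 probe sets Epcam read 0.0752 to 11.1 in antibody-treated and 0.103 to 5.80 in untreated cells. In lung this set read 644 to 1617, or at most 902 without the arrays labelled male 3 and 4. The labelling control dap read 438 to 761 in antibody-treated and 677 to 753 in untreated cells but at most 3.70 in lung, so labelling and sample type cannot be told apart.

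The start regions of 4 members are shown because their transcripts follow different patterns on these arrays: Grem1 was high in the cells, Bmp4 was present in cells and lung, and Bmp5 and Bmp6 were present in lung. Each covers 250 bases before to 50 after the gene start, 5′ to 3′ on the gene's strand, from RefSeq on build GRCm38.p6, where 5 of the 9 members had an entry. Capitals mark matches on either strand to GGGCGG (the GC box), CCAAT, the E-box CACGTG or TATAAA, and no capital run below joins 2 different motifs.
Grem1, chr2:113758599-113758898, minus strand: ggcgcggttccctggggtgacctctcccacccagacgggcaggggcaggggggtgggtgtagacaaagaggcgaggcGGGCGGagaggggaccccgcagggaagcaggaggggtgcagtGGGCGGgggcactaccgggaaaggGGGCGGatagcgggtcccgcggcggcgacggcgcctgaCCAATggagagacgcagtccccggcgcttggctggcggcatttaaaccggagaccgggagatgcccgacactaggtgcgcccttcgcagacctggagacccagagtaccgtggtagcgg
Bmp4, chr14:46390620-46390919, minus strand: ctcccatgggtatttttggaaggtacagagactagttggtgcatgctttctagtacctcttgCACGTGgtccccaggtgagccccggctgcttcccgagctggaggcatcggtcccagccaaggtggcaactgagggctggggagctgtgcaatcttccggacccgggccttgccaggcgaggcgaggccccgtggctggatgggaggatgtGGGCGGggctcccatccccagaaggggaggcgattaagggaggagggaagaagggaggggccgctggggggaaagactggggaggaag
Bmp5, chr9:75775115-75775414, plus strand: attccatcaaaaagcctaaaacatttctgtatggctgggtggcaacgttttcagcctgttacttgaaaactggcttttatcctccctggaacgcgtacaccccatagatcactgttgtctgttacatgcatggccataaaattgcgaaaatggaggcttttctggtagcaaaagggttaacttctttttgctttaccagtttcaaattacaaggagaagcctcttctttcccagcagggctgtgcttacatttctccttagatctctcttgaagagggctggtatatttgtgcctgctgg
Bmp6, chr13:38345466-38345765, plus strand: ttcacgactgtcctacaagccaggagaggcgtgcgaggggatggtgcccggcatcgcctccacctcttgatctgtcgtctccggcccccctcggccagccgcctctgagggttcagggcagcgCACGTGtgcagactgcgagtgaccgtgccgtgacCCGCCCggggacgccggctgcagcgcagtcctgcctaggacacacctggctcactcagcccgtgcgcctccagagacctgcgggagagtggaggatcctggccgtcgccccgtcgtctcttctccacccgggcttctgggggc
The Grem1 window held 3 GC boxes and 1 CCAAT and the Bmp4 window 1 GC box and 1 E-box. The Bmp6 window held 1 GC box and 1 E-box, and the Bmp5 window none of the motifs. Of 32851 windows of this length in the RefSeq table, 35.7% held a GC box, 37.4% a CCAAT, 7.15% this E-box and 13.6% TATAAA. CG dinucleotides numbered 28 in the Grem1 window, 12 in that of Bmp4, 4 in that of Bmp5 and 27 in that of Bmp6, against a median of 7. These matches describe the letters only and were not tested against the expression values.

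Among the antagonists, Grem1 separated cells from lung most widely. Gremlin 1 is a secreted antagonist that binds chiefly BMP2, BMP4 and BMP7. Its single probe set (1425357_a_at, Entrez gene 23892) read 1040.0, 1549 and 622 in antibody-treated cells and 1637, 1043 and 514 in untreated cells, against a lowest value of 0.00852, a median of 4.18 and a highest of 17.5 on the 16 lung arrays. All 6 cell arrays lay above every lung array, and no lung array reached background. The log2 difference from lung was 5.65 for antibody-treated and 5.58 for untreated cells. Because lung was at background, its size depends on the offset added before the logarithm: with an offset of 1 the differences were 8.01 and 7.93, and with 64 they were 3.97 and 3.90, in the same order of groups. No second probe set of Grem1 was annotated, so the pattern has no check within the array.

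Chrd, which encodes chordin, a BMP-binding protein first known from the embryonic organizer, was also higher in the cells but at a far lower intensity. It read 111, 72.4 and 144 in antibody-treated and 94.3, 107 and 74.2 in untreated cells, against 5.91, 23.0 and 38.1 (lowest, median and highest) in lung. The cell and lung ranges did not overlap, and 3 of 16 lung arrays exceeded background. The log2 differences from lung were 1.88 and 1.72.

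The 2 probe sets of Fst (Entrez gene 14313), which encodes follistatin, a secreted binder of activins that also binds several BMPs, disagreed. The brighter set (1434458_at) read 382, 383 and 73.8 in antibody-treated and 263, 68.6 and 149.9 in untreated cells, against 35.9, 56.6 and 149 in lung. Both cell groups overlapped the lung range, each by way of 1 array near 70 intensity units, and untreated 3 was close to the highest lung array. The log2 differences were 1.85 and 1.26, and without male lung 3 and 4, which held the 2 highest lung values, they were 2.00 and 1.41. The dimmer set (1421365_at) read 54.5, 45.4 and 21.9 in antibody-treated and 39.1, 22.1 and 15.1 in untreated cells, against 19.8, 28.3 and 52.2 in lung. On that set each cell group overlapped lung, with log2 differences of 0.46 and -0.02, or 0.52 and 0.04 without male lung 3 and 4. The sign of the untreated value turned with the setting, between -0.27 and 0.18 over the settings tried.

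Nog, encoding the BMP antagonist noggin, was below background on all 22 arrays. It read 6.48 to 14.7 in antibody-treated cells, 9.64 to 15.4 in untreated cells and 3.28 to 14.8 in lung, so its level was not detectable and no difference is read from it.

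The ligands split. Bmp4, which in the embryonic lung is known from the tips of the growing epithelium and the mesenchyme, was bright in all groups. It read 945, 1109.5 and 939.8 in antibody-treated and 1430.2, 735 and 845 in untreated cells, against 396, 773 and 1258 in lung. All antibody-treated and 2 of the 3 untreated values lay inside the lung range. The log2 differences were 0.36 and 0.29, with the highest lung value on the array labelled male 4 and the lowest on male 2. Without male lung 3 and 4 the differences were 0.46 and 0.39, and with median centring they were 0.62 and 0.56. Leaving out untreated 1, the brightest cell array, brought the untreated difference to 0.05, and leaving out antibody-treated 2 brought the other to 0.28.

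Bmp6, a ligand whose liver endothelial product is known to control the iron hormone hepcidin, showed the opposite pattern to Grem1. It read 3.71, 8.33 and 4.00 in antibody-treated and 6.42, 0.848 and 0.827 in untreated cells, against 507, 1248 and 1631 in lung. All 6 cell arrays were below background and all 16 lung arrays above it. The log2 differences were -5.75 and -5.96, or -5.89 and -6.10 without male lung 3 and 4. Their size depends on the offset, at -7.37 and -8.38 with 1 and -4.15 and -4.21 with 64. Within lung, the arrays labelled male 3 and 4 were lowest, at 697 and 507, while the other 14 spanned 1054 to 1631.

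Bmp5, encoding a ligand close in sequence to BMP6 and BMP7, was likewise read in lung and not in the cells, and its 3 probe sets went the same way. On the brightest (1455851_at) it read 2.07, 1.54 and 0.198 in antibody-treated and 2.82, 0.936 and 0.00386 in untreated cells, against 533, 768 and 893 in lung. The log2 differences were -5.44 and -5.45 on that set, -3.72 and -3.45 on 1421283_at, and -2.17 and -2.33 on 1421282_at. The size thus differed between sets of the same gene, while each of the 3 had all cell arrays below background and all lung arrays above it. With the cells below background, each size depends on the offset and on the set's brightness in lung. In untreated cells, 1455851_at gave -8.44 with an offset of 1 and -3.64 with 64. On 1421282_at the values were -5.17 and -1.05.

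Bmp2, whose product is bound by gremlin and noggin and drives bone and heart development, was dimmer. It read 5.62, 0.865 and 0.109 in antibody-treated and 3.45, 6.41 and 5.98 in untreated cells, against 50.4, 86.3 and 109.6 in lung. The ranges did not overlap, and the log2 differences were -2.32 and -2.06. Bmp2 was below background on all 6 cell arrays, so the size depends on the offset. It was -4.74 and -3.42 with an offset of 1, and -1.09 and -1.01 with 64. Bambi, itself known as a target of BMP and TGF-beta signalling, read 125, 100.0 and 201 in antibody-treated and 127, 163 and 191 in untreated cells, against 363, 457 and 563 in lung. It was above background on all 22 arrays, lower on every cell array than on any lung array, and its log2 differences were -1.43 and -1.23.

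**Figure D1:**
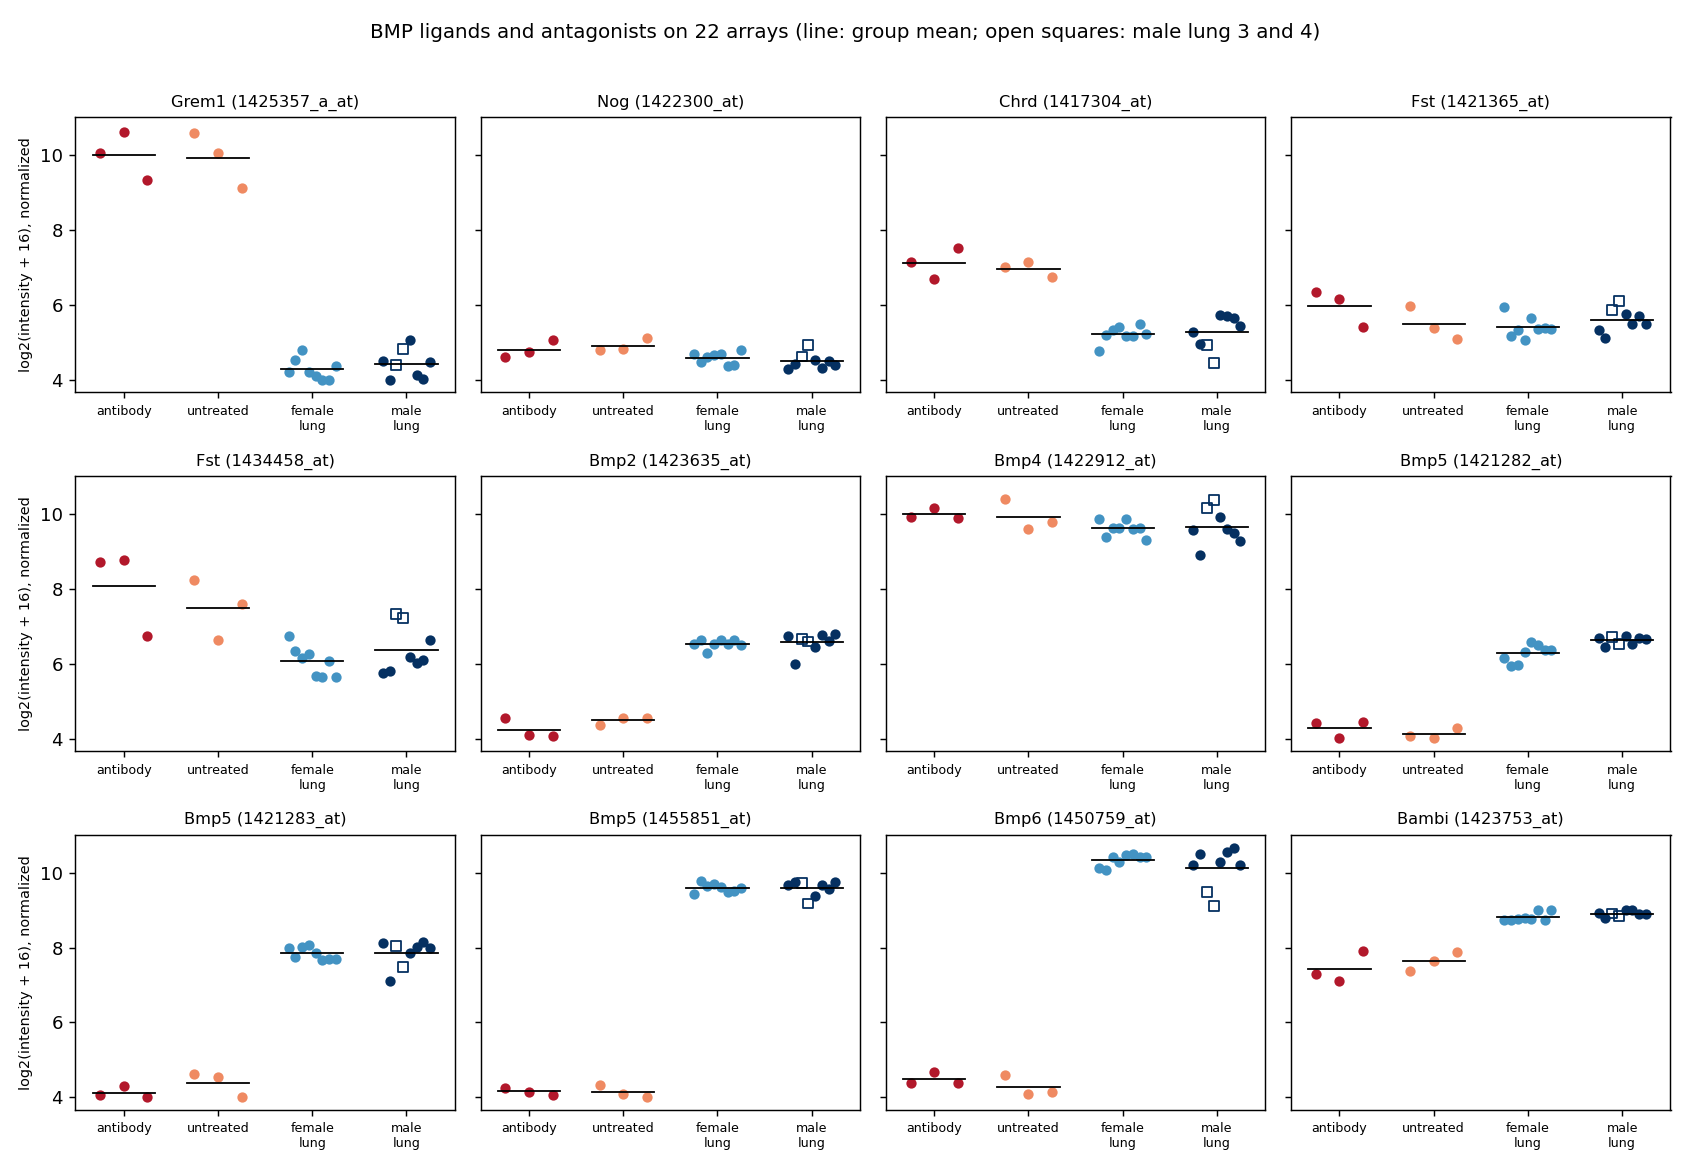
Normalized log2(intensity + 16) of the 12 probe sets of the 9 genes on each array, in antibody-treated cells, untreated cells, female-labelled and male-labelled lung, with a line at each group mean. Grem1 and Chrd lie higher on the cell arrays, Bmp2, Bmp5, Bmp6 and Bambi higher on the lung arrays, and the open squares, male lung 3 and 4, lie below the other lung arrays for Bmp6.

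Counted without a test, 3 of the 12 probe sets were at least 2-fold higher and 6 at least 2-fold lower in antibody-treated cells than in lung, and the counts for untreated cells were also 3 and 6. These counts and the shares below are at an offset of 16. With an offset of 64, the brighter Fst set fell short of 2-fold in untreated cells (0.89). At that offset Chrd was at 1.00, Bmp2 at -1.01 and Bmp5 on 1421282_at at -1.05 in untreated cells. Of all 45037 probe sets, 15.2% were at least 2-fold higher and 14.3% lower in antibody-treated cells, and 15.4% and 14.4% in untreated cells. The members were chosen with this contrast in view, so nothing is read from their share. Both cell groups were set against the same 16 lung arrays. In these bulk samples, fewer cells of a type and less RNA per cell cannot be told apart.

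**Figure D2:**
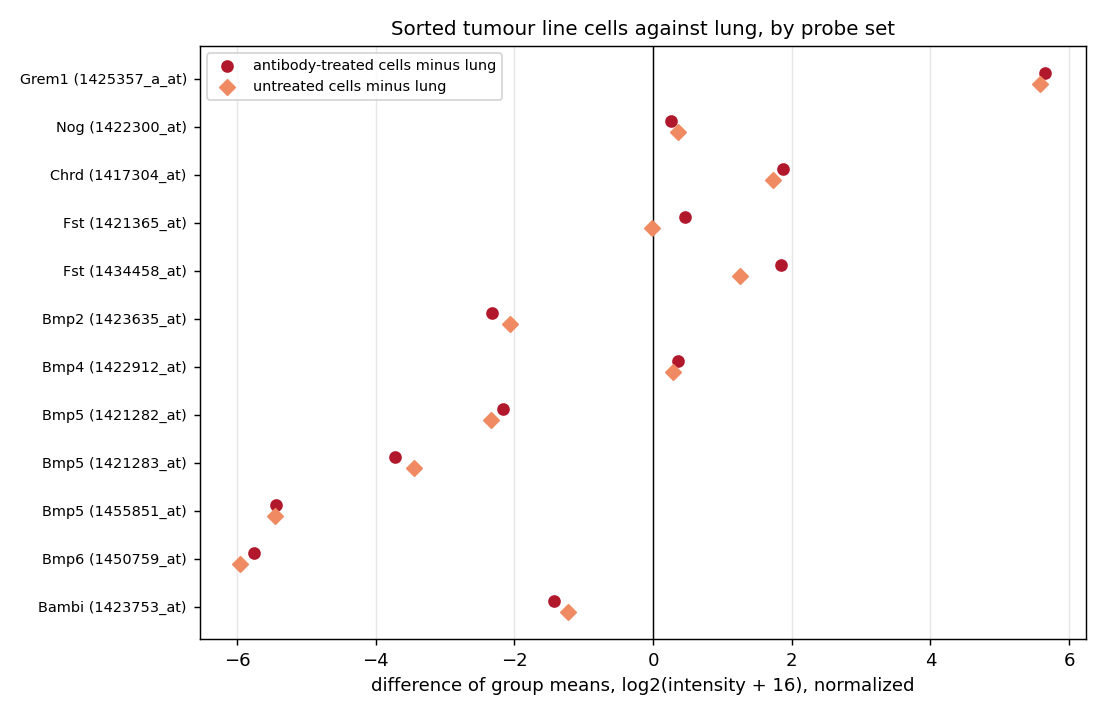
Difference of group means on the log2 scale for each probe set, antibody-treated cells minus lung (circles) and untreated cells minus lung (diamonds), without a test. Values run from 5.65 and 5.58 for Grem1 to -5.75 and -5.96 for Bmp6, and the 2 cell groups differ most on the brighter Fst set, by 0.59.

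Most markers of lung cell types were lower in the sorted cells. This was the direction of Bmp2, Bmp5, Bmp6 and Bambi, and the reverse of that of Grem1 and Chrd. Of 7 endothelial markers, 7 were lower in antibody-treated and 7 in untreated cells by limma, and their summed intensity was 48.8 to 63.6 in antibody-treated and 53.3 to 55.5 in untreated cells, against 13514 to 26765 in lung. Of these, Pecam1, Cdh5, Tie1, Tek, Cldn5 and Calcrl were below background on all 6 cell arrays. Leukocyte markers were lower in 6 of 6 cases in each cell group (summed 121 to 191 and 118 to 135, against 10139 to 14422 in lung), with Ptprc, Cd79a, Cd3e and Itgam below background on all cell arrays. Club cell markers were lower in 5 of 5 cases (117 to 196 and 65.6 to 141, against 40299 to 52603), with Scgb1a1, Scgb3a2 and Cyp2f2 below background. Alveolar type 2 markers were lower in 5 of 5 measured cases (807 to 1189 and 590.3 to 1055, against 31728 to 45204) and alveolar type 1 markers in 5 of 6 (1742 to 1810.4 and 1635 to 2092, against 21362 to 28569), with Sftpb, Sftpa1 and Cldn18 below background. The alveolar type 1 marker Pdpn was not called, with means of 1255 in antibody-treated and 1335 in untreated cells, against 1753 in lung. Epithelial adhesion and keratin markers were lower in 7 of 8 cases (1787 to 2474 and 1724 to 3095, against 13256 to 25446), with Epcam, Krt7, Cldn3 and Cldn7 below background. Cdh1, Krt8 and Krt18 were lower but above background on all 6 cell arrays, and Krt19 was not called. Of the 2 Epcam probe sets, 1 was called lower in untreated cells. Smooth muscle markers were lower in 5 of 6 cases (3724 to 5102 and 3038 to 4943, against 6466 to 14296), with Myh11 and Cnn1 below background, while Acta2 was not called. Mesothelial markers were lower in 2 of 4 cases in antibody-treated and 3 of 4 in untreated cells (112 to 166 and 95.3 to 175, against 362 to 1314), with Upk3b and Lrrn4 below background. Fibroblast markers were mixed, with 4 of 7 lower in each cell group (summed 6553 to 11302 and 7598 to 11468, against 14019 to 20385). Of these, Tcf21 and Lum were below background on all 6 cell arrays. Col1a1 was higher in both cell groups, with means of 2054 in antibody-treated and 2123 in untreated cells, against 935 in lung. Col1a2 (2943 and 2901, against 2821) and Col3a1 (2819 and 3182, against 4142) were bright in the cells and not called. The markers below background on every cell array passed the filter through lung alone, so only a lower call was open to them. Over all genes tested, 23.9% were called lower in antibody-treated and 23.8% in untreated cells. Pdpn, Krt19, Acta2 and Col3a1 were lower at a limma adjusted p below 0.05 but short of 2-fold. The part of these cell types in the differences of the BMP genes was not tested.

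By the root mean square difference of centred log2 values over the 22 arrays, the genes nearest to Grem1 among 18192 others were Steap1 (0.37), the AP-1 gene Fosl1 (0.42) and the matrix glycoprotein gene Thbs2 (0.45). Those nearest to Bmp6, the ligand with the largest difference in favour of lung at offsets of 16 and 64 but not at 1, where the brightest Bmp5 set led (-8.16 and -8.44, against -7.37 and -8.38 for Bmp6), were Elapor1 (0.19) and the endothelial receptor genes Tek (0.22) and Tie1 (0.22). The arrays over which likeness was measured are the same 22 in which cells and lung stand apart. The protein-coding neighbours of Grem1 on either side in the RefSeq table of GRCm38.p6, Fmn1 and Scg5, were not called or not tested. The brighter Fmn1 set averaged 26.4 ± 8.52 in antibody-treated and 21.3 ± 5.86 in untreated cells (SD, n = 3 each), against 38.7 ± 9.55 in lung (SD, n = 16), with log2 differences of -0.14 ± 0.16 and -0.34 ± 0.16 (SE; limma adjusted p = 0.437 and 0.0581). The dimmer Fmn1 set, below the filter on low values, ran the other way, at 15.5 ± 8.40 in antibody-treated and 17.5 ± 4.00 in untreated cells, against 8.72 ± 3.10 in lung. Scg5 averaged 7.48 ± 3.60 in antibody-treated and 6.14 ± 5.56 in untreated cells, against 12.5 ± 5.27 in lung, and was also below the filter.

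The antibody comparison was not used to choose the genes, and here they can be tested. Of the 12 probe sets, 6 passed the filter on low values in the cells, and 0 were called by limma at an adjusted p below 0.05, where 3 of 27499 probe sets, or 0.0109%, were called over the whole array. At an unadjusted p below 0.05, 0 of the 6 passed as well, against 1.2% of all probe sets. Grem1 averaged 1070.5 ± 464 in antibody-treated and 1065 ± 562 in untreated cells (SD, n = 3 each), a log2 difference of 0.08 with a 95% interval of -0.85 to 1.00 (limma adjusted p = 1.00). This interval holds changes between 0.557-fold and 2.00-fold, and the sign turned when antibody-treated 2 (-0.23) or untreated 3 (-0.32) was left out. Bmp4 averaged 998 ± 96.6 and 1003 ± 374, a difference of 0.06 (-0.42 to 0.54). It turned slightly negative without antibody-treated 2 (-0.02), untreated 2 (-0.10) or untreated 3 (-0.01).

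The 2 sets of Fst had the largest differences, 0.59 on 1434458_at (-0.71 to 1.90) and 0.48 on 1421365_at (-0.19 to 1.15), with overlapping groups on each. The first ranged between 0.16 without untreated 2 and 1.26 without antibody-treated 3. Chrd differed by 0.15 (-0.35 to 0.65), with -0.05 when antibody-treated 3 was left out, and Bambi by -0.20 (-0.73 to 0.34). Noggin, Bmp2, Bmp5 and Bmp6 transcripts were below background in both cell groups and could not be compared. The spread between arrays limited these tests: the SD within the cell groups was 0.70 on the log2 scale for Grem1 and 1.00 for the brighter Fst set, against a median of 0.20 over all 27499 probe sets tested, so that Grem1 had a larger SD than 98.5% of them and Fst a larger SD than 99.3%. Grem1 was lowest on array 3 of each group, whereas Bambi was highest on array 3 of each. 

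**Figure D3:**
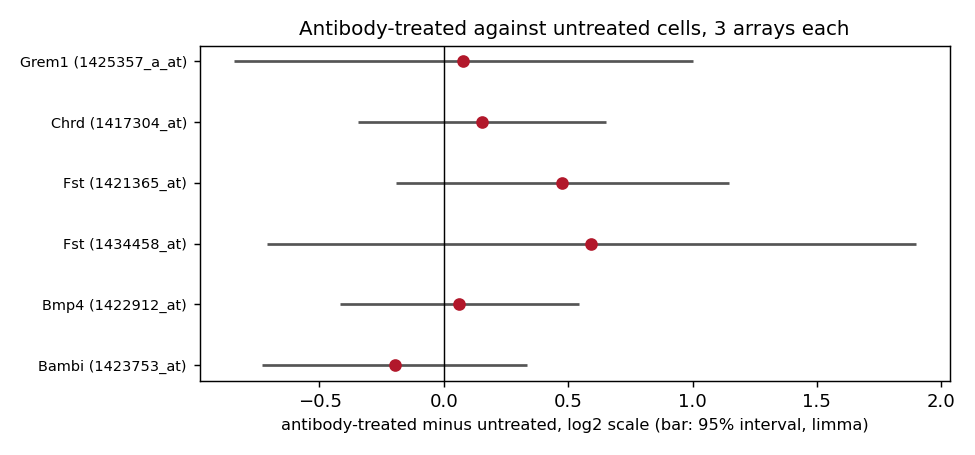
Log2 difference of antibody-treated minus untreated cells (3 arrays each) with its 95% interval from limma for the 6 probe sets above the filter. Each interval includes 0, and the widest belongs to Fst on 1434458_at, from -0.71 to 1.90.

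The other genes of the pathway were outside the choice of members and were tested against lung. Their lists were also drawn up with earlier results of these data known, so the calls describe these data and are not independent support. Of 65 genes on 7 fixed lists, 53 were tested in untreated cells, of which 7 were higher and 20 lower at a limma adjusted p below 0.05 and at least a 2-fold difference. In antibody-treated cells 6 were higher and 21 lower. Of the genes that were lower, Gdf10, Chrdl1, Bmpr1b, Msx2 and the leading Pcsk5 set were below background on every cell array. They passed the filter through lung alone, so only a lower call was open to them. Over all genes tested, 41.1% were called in antibody-treated cells (17.2% higher and 23.9% lower) and 41.6% in untreated cells (17.8% higher and 23.8% lower). The median log2 difference of the 53 genes was -0.31 in antibody-treated and -0.38 in untreated cells, against -0.01 and 0.01 over all genes tested.

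Receptors and co-receptors were mostly lower in the cells, with 7 of 11 lower and 2 higher in each cell group. Acvrl1, encoding the type I receptor ALK1 of endothelial cells, averaged 51.1 ± 2.29 in antibody-treated and 40.0 ± 1.10 in untreated cells (SD, n = 3 each), against 1407 ± 213 in lung (SD, n = 16), with log2 differences of -4.19 ± 0.12 and -4.47 ± 0.12 (SE; limma adjusted p = 1.46e-19 and 3.97e-20). Eng, encoding its co-receptor endoglin, differed by -3.45 and -3.42, and both genes are known from endothelium, whose markers were near background in the cells as given above. The part of endothelial cells in the Acvrl1 and Eng differences was not tested. Bmpr2, the main BMP type II receptor gene, averaged 959 ± 59.2 and 957 ± 109 in the cells, against 4336 ± 499 in lung, with differences of -2.17 and -2.19. Bmpr1b, a type I receptor gene, differed by -1.91 and -2.23 and fell short of 2-fold with an offset of 64 (-0.89 and -0.98). The other genes that were lower were Acvr2a, Rgma and Rgmb. Acvr1, encoding the type I receptor ALK2, was higher, at 860.1 ± 217 and 833 ± 57.8, against 331 ± 56.2 in lung, with differences of 1.39 and 1.36, as was Neo1. These calls are those of 1 leading probe set a gene. In untreated cells the call was shared by 1 of 3 sets of Acvr1 and of Bmpr1b, 1 of 2 of Acvr2a, 2 of 6 of Rgmb and 2 of 5 of Neo1. It was shared by 2 of 3 sets of Bmpr2 and 2 of 2 of Acvrl1 and of Eng. For each of these genes 0 sets were called the opposite way. Bmpr1a, encoding the type I receptor ALK3, averaged 1086 ± 15.7 and 1088 ± 74.7, against 702 ± 70.2 in lung. It was higher (0.64 and 0.62, limma adjusted p = 8.21e-07 and 1.36e-06) but short of 2-fold, and so was not called.

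Of 6 genes of SMAD transducers and SMURF ubiquitin ligases, 2 were lower in antibody-treated and 1 in untreated cells, and 0 were higher. Smurf2 differed by -1.59 and -1.52, while Smad4 differed by -1.12 and -0.996, which is on either side of the 2-fold limit. Of the 3 Smurf2 probe sets, 2 shared the call in untreated cells and 0 were opposite. Smad1 (-0.08 and -0.12) and Smad5 (-0.49 and -0.38) were not called, Smad5 only because it was short of 2-fold (limma adjusted p = 4.02e-05 and 6.71e-04).

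The target genes did not move as one group. Of 11, 5 were lower and 0 higher in each cell group. Smad6, an inhibitory SMAD induced by BMP signalling, averaged 172 ± 46.6 in antibody-treated and 160.0 ± 31.1 in untreated cells, against 1743 ± 375 in lung, with differences of -3.06 ± 0.19 and -3.13 ± 0.19 (SE; limma adjusted p = 4.56e-13 and 2.79e-13). Hey1 (-1.72 and -1.75), Smad7 (-1.55 and -1.70) and the homeobox gene Msx2 (-1.54 and -1.43) were lower as well, though Msx2 fell short of 2-fold with an offset of 64 (-0.85 and -0.81). Of the 2 Msx2 probe sets, 1 shared the call in untreated cells and 0 were opposite. The ID genes encode inhibitors of basic helix-loop-helix factors and are widely used as readouts of BMP signalling. Id4 was the fifth gene that was lower (-1.26 and -1.28), at 56.0 ± 7.95 and 57.2 ± 21.6, against 201 ± 52.3 in lung. By contrast Id1 averaged 2838 ± 1136 and 2686 ± 284, against 1842 ± 361 in lung, and Id3, also bright, averaged 3743 ± 1247 and 3801 ± 257, against 2037 ± 372. Both were higher at a limma adjusted p below 0.05 (0.0121 and 0.0116 for Id1, 3.11e-04 and 1.32e-04 for Id3). Neither reached a 2-fold difference (0.49 and 0.49 for Id1, 0.78 and 0.85 for Id3). Msx1 (0.96 and 0.90) and Dlx5 (0.27 and 0.36) were also higher at that level and short of 2-fold, and Atoh8 was lower (-0.29 and -0.38). Id2 (0.34 and 0.17) did not pass that level.

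**Figure D4:**
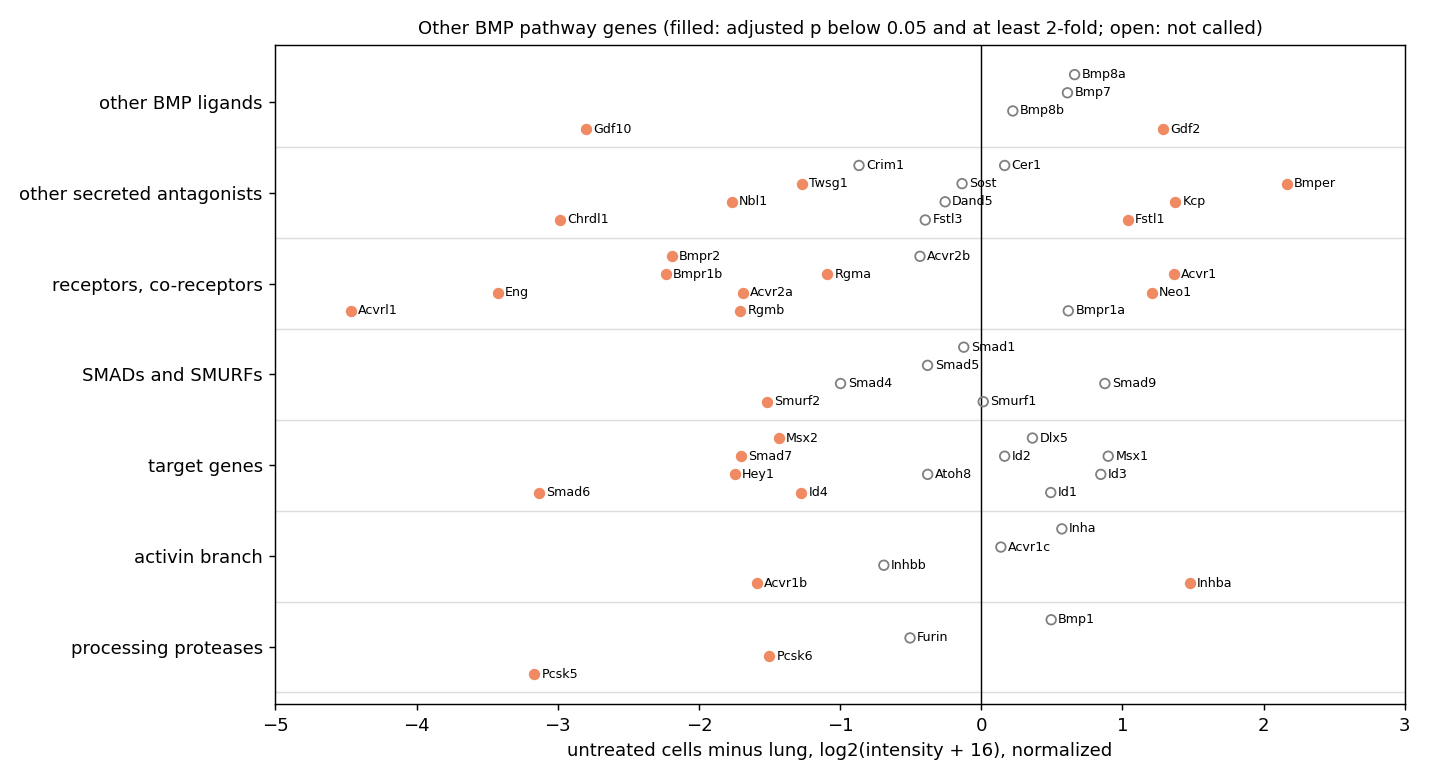
Log2 difference of untreated cells minus lung for the 53 tested genes of 7 BMP pathway lists, 1 point a gene, filled where the limma adjusted p was below 0.05 and the difference at least 2-fold. Acvrl1 (-4.47), Eng (-3.42) and Pcsk5 (-3.17) lie farthest to the left and Bmper (2.17) farthest to the right.

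Other secreted antagonists and binding proteins went both ways, with 2 of 11 higher and 3 lower in antibody-treated cells and 3 higher and 3 lower in untreated cells. Bmper, encoding an extracellular BMP regulator with chordin-like repeats, averaged 1247 ± 220.2 and 1343 ± 227, against 292 ± 48.0 in lung, with differences of 2.08 ± 0.13 and 2.17 ± 0.13 (SE; limma adjusted p = 1.73e-13 and 7.95e-14). Kcp, another gene of the chordin family, was higher (1.30 and 1.37), and fell short of 2-fold with an offset of 64 (0.91 and 0.96). Chrdl1, which encodes the antagonist chordin-like 1, was lower, at 4.37 ± 1.41 and 4.26 ± 3.22, against 165 ± 42.4 in lung (-2.97 and -2.98), as were Nbl1 (-1.88 and -1.77) and Twsg1. Fstl1 was the third gene higher in untreated cells (1.04) and lay just under 2-fold in antibody-treated cells (0.91). In untreated cells the call was shared by 1 of 4 probe sets of Twsg1, 3 of 4 of Chrdl1 and 1 of 2 of Fstl1, with 0 opposite.

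Of the other ligands, 1 of 5 tested was higher and 1 lower in each cell group. Gdf10 was lower, at 14.4 ± 6.80 and 8.70 ± 6.64, against 173 ± 23.5 in lung (-2.47 and -2.80). Gdf2, encoding the liver-derived ligand BMP9, was higher (1.39 and 1.29) on its 1 probe set, and differed by 0.98 in untreated cells with an offset of 64. In the activin branch, Inhba, the gene of the activin A subunit that follistatin binds, was higher, at 1122 ± 668 and 888 ± 279.8, against 313 ± 51.1 in lung (1.71 and 1.48), and the type I receptor gene Acvr1b was lower (-1.56 and -1.59). Inhba and Acvr1b each have 2 probe sets, of which 1 shared the call in untreated cells and 0 were opposite. Among proteases that mature or release BMPs, 2 of 4 tested were lower in each group and 0 higher. Pcsk5 was lower on its leading set (-3.10 and -3.17), while 1 of its 5 probe sets was called the other way in untreated cells. Pcsk6 differed by -1.19 and -1.50, and it fell short of 2-fold with an offset of 64 (-0.67 and -0.80) and, in antibody-treated cells, with array weights (-0.77) or without antibody-treated 3 (-0.79). Between the antibody-treated and the untreated group, 45 of the 65 genes were tested and 0 were called by limma.

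Within lung, the members were also compared between the arrays labelled female and male. Of the 12 probe sets, 10 passed the filter, and 0 were called, where 32 of 29538 probe sets, or 0.108%, were called over the whole array. At an unadjusted p below 0.05 the share over all probe sets was 10.1%, and of the members only Bmp5 on 1421282_at lay below it. That set averaged 68.0 ± 14.0 in female-labelled and 88.1 ± 10.6 in male-labelled lung (SD, n = 8 each), a log2 difference of -0.35 ± 0.10 (SE; limma adjusted p = 0.203), and -0.35 (adjusted p = 0.225) without male lung 3 and 4. The other 2 sets of Bmp5 differed by 0.00 and 0.01, so the gene's probe sets did not share the difference. Bmp6 averaged 1270.3 ± 138 in female-labelled and 1165 ± 390 in male-labelled lung, a difference of 0.21 (adjusted p = 0.720). Without male lung 3 and 4 the male-labelled mean was 1353 ± 200.4 (SD, n = 6) and the difference turned to -0.06. Bmp4 differed by -0.05 with these arrays and by 0.15 without them.

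The lung arrays varied little for Bambi, with a within-group SD of 0.10 on the log2 scale, below that of all but 3.52% of the 29538 probe sets, and more for Bmp6 (0.40), Bmp4 (0.36) and the brighter Fst set (0.52), against a median of 0.21. The arrays labelled male lung 3 and 4 had the 2 lowest Bmp6 values (697 and 507), the 2 highest Bmp4 values (1121 and 1258) and the 2 highest Fst values (149 and 126). Without them, the lung mean was 1306 ± 166 for Bmp6, 752 ± 147 for Bmp4 and 57.3 ± 19.5 for Fst (SD, n = 14), against 1218 ± 288, 807 ± 204 and 67.3 ± 33.2 with them (SD, n = 16).

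**Figure D5:**
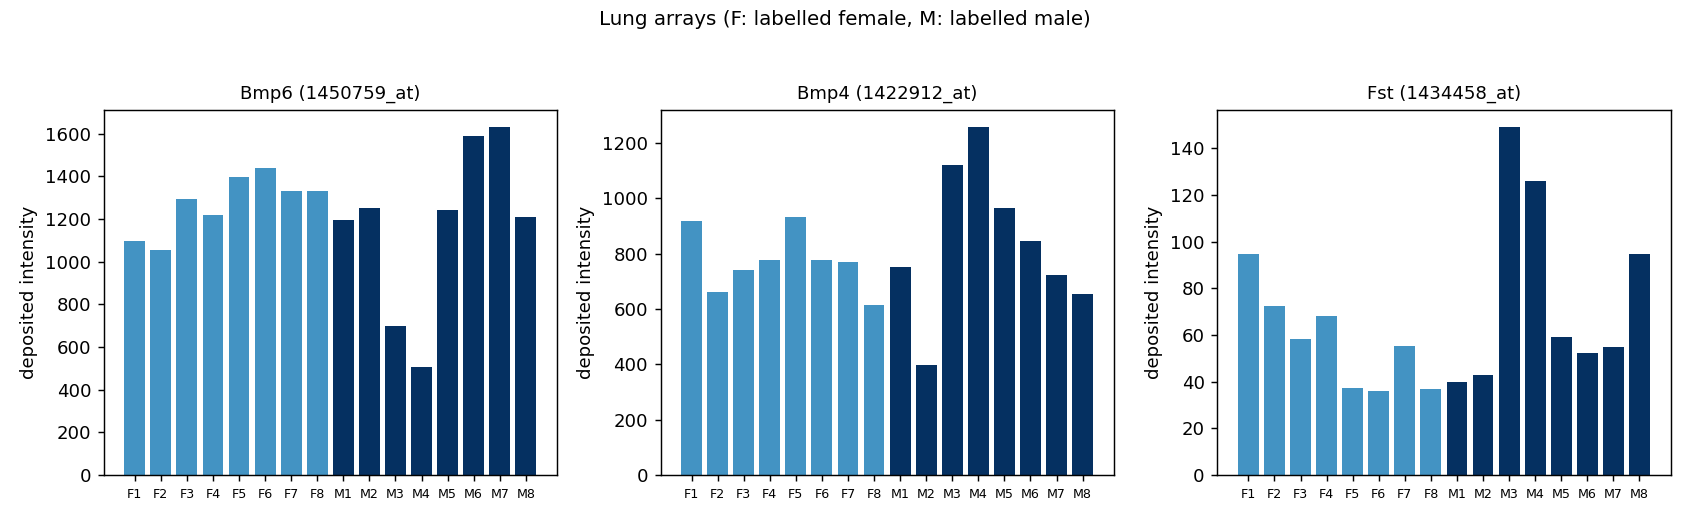
Deposited intensity of Bmp6, Bmp4 and the brighter Fst set on each lung array, 8 labelled female (F) and 8 labelled male (M). M3 and M4 are lowest for Bmp6 (697 and 507) and highest for Bmp4 (1121 and 1258) and Fst (149 and 126).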

How the data were processed

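The deposited values are probe set intensities on a linear scale, which the authors summarized by the PLIER algorithm, as the submitters' processing notes list. Version, options and array scaling are not given in the sources used here. The 64 control probe sets were left out. GEO's platform annotation gave 34945 of the other 45037 probe sets 1 gene symbol, 932 several and 9160 none. Intensities were transformed as log2(intensity + 16) and quantile normalized over the 22 arrays. Probe sets entered a test when 3 or more of its arrays exceeded their 40th percentile.

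The models, over all such probe sets, used limma 3.58.1 in R 4.3.3, with a variance trend, two-sided tests and Benjamini-Hochberg adjustment over all probe sets tested, called at an adjusted p of 0.05. The antibody comparison used the 6 cell arrays and the comparison of female with male lung the 16 lung arrays. Cells against the mean of female and male lung used all 22 arrays and also required 2-fold. Standard errors (SE) are the model's, SD those of the arrays. In the antibody comparison, p-values measure spread between preparations of 1 line. Between the lung labels they measure spread between lung arrays. For cells against lung they pool the spread of cell and lung arrays, most of which are lung. Gene lists were counted on 1 probe set a gene, the brightest, avoiding cross-hybridizing sets where another was present. The fits were tested on simulated data.

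All members and their probe sets are named, with up to 4 called genes of each pathway list with the largest difference in untreated cells, and the 3 genes most like Grem1 and Bmp6. Names such as Twsg1, Fstl1, Neo1, Acvr1, Bmpr1a, Acvr2a, Rgma, Rgmb and the marker genes were added after their values were seen. So were Smad1, Smad4, Smad5, Id1, Id2, Id3, Id4, Msx1, Dlx5 and Atoh8. The members and lists were chosen with earlier results of these data known. Alternatives covered scaling, offset, filter, features, variance model, lung arrays and single arrays left out.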

Additional observations from a re-analysis of the deposited data

Results flagged for a closer look

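Chance marks about 1 in 20 groups as holding an array far from the others, and 20 groups were examined. On female lung 1, Chrd read 12.2, while the other 7 female-labelled arrays lay between 20.9 and 30.3, all near background. On female lung 3, Bmp2 read 65.4, while the others lay between 80.3 and 92.1. On male lung 2, Bmp2 read 50.4, while the others lay between 75.9 and 109.6. Outside the tested probe sets, the poly-A labelling control dap had a median of 684 over the 6 arrays of sorted cells, while no lung array exceeded 3.70.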

How the results depend on the processing

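Among the 12 member probe sets, 0 were called in the antibody comparison and 0 between female-labelled and male-labelled lung under every alternative run. The counts of other BMP pathway genes called against lung stayed within 1.5 times under the alternatives run, at 21 to 30 in antibody-treated and 20 to 29 in untreated cells, with the lowest counts at an offset of 64. Of 264 alternative values of the members against lung, 224 moved by less than 1 SD of the cell arrays and 40 by more. The median log2 difference of all tested probe sets was 0.13 in antibody-treated and 0.15 in untreated cells, -0.07 and -0.04 without normalization and 0.21 and 0.23 with median centring. The share of higher among called sets was 50.3% and 50.6%, 40.3% and 40.3%, and 55.3% and 55.2% in the same order.

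The 3 probe sets called over the whole array in the antibody comparison became 5 with an offset of 64, 6 with array weights and 10 with all 22 arrays in the fit, and 1 to 9 when single arrays were left out. The 32 called between female-labelled and male-labelled lung became 19 with an offset of 1, 9 without a filter, 7 with 1 probe set a gene, 7 without a variance trend, 118 with array weights, 58 without male lung 3 and 4, and 96 without male lung 2, 3 and 4, the last chosen after seeing the data, as was leaving out either set of lung arrays for the cells. The causes were not tested. With the replicate number as a block the counts were 3 in cells and 1 in lung. Same-numbered arrays correlated at -0.17 to 0.04 in the cells and -0.08 to 0.24 in lung, and 1 of 3 and 1 of 8 arrays matched their own number best, so the numbers were not taken as pairs.

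Leaving out 1 cell array gave antibody differences of -0.32 to 0.41 for Grem1, -0.10 to 0.30 for Bmp4, -0.048 to 0.36 for Chrd and 0.16 to 1.26 for the brighter Fst set, which gave 1.29 with array weights. Their sign changed for Grem1 without antibody-treated 2 (-0.23) and untreated 3 (-0.32), Bmp4 without antibody-treated 2 (-0.019), untreated 2 (-0.10) and untreated 3 (-0.012), and Chrd without antibody-treated 3 (-0.048). Between the lung labels, Bmp5 on 1421283_at gave 0.0045 without normalization and 0.0017 with an offset of 1, and on 1455851_at -0.024 with median centring, -0.0090 with array weights, -0.031 without male lung 3 and 4 and -0.0088 without male lung 2, 3 and 4. Without male lung 3 and 4, Bmp4 gave 0.15 and Bmp6 -0.064, and without male lung 2, 3 and 4 they gave 0.042 and -0.046. Signal near background limits Nog everywhere and Bmp2, Bmp5 and Bmp6 in the cells. It also limits Gdf10, Chrdl1, Bmpr1b, Msx2 and the leading Pcsk5 set in the cells.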
